A study of Arabidopsis thaliana with 46 samples.

Results

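Plastid-encoded genes are the genes kept on the chloroplast's own genome. Here they are the 48 probe sets, of 22810 on the array, whose single annotated gene symbol is a lower-case plastid name. The symbol had to start with psa, psb, pet, ndh, rpo or ycf, or be rbcL, accD, clpP, matK, cemA or ccsA. No measured value entered the choice, and all 48 matched a gene of the plastid genome in the TAIR10.1 gene table. They comprise 15 photosystem II genes (psb), 10 genes of the NDH complex, 6 of the cytochrome b6f complex (pet), 5 of photosystem I (psa), 4 of the plastid RNA polymerase (rpo), 2 ycf genes and 6 single genes. The probe sets of ycf1, ycf2 and ndhB carry more than 1 gene entry and are not included.

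The chloroplast genome is transcribed by a bacterial-type polymerase, whose core is encoded by the rpo genes in the plastid itself and whose sigma factors come from the nucleus, and by a phage-type polymerase from the nucleus. Most of its genes lie in clusters that are transcribed together and then cut and processed, so transcript levels depend on RNA stability as well as on transcription. Each photosynthetic complex joins plastid-encoded subunits to subunits made from nuclear genes. Plastid messengers mostly lack the stable poly(A) tails on which 3′ labelling kits of the kind used here rely.

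Transcript levels in shoots of Arabidopsis seedlings were measured on 46 Affymetrix arrays in 16 groups. The wild type was Col-0, and 3 lines carried a T-DNA insertion in the transcription factor gene WRKY1, SALK_016954, SALK_136009 and SALK_070989. Seedlings were 14 days old and were taken 2 h into the light period. They had grown at 22 °C with days of 16 h at a light level of 50 µmol m-2 s-1 and nights of 8 h. In the steady experiment all 4 genotypes grew on full medium, and only Col-0 and SALK_070989 entered the other experiments. The nitrogen experiment began with growth on 1 mM KNO3, and a transfer of 2 h followed, either to 20 mM KNO3 plus 20 mM NH4NO3 (N-rich) or to 20 mM KCl (N-absent). The dark group of the light experiment was under foil from the onset of light on the day before until harvest, and the light group was not covered. A combined experiment applied darkness to both nitrogen states (dark N-absent and dark N-rich), without light arrays of its own. Its media and the length of its treatments are not stated in the labels. Of the groups, 14 had 3 arrays and the 2 Col-0 groups of the combined experiment had 2, because a sample of each was destroyed while being collected. The labels do not say whether replicates were grown as separate cultures. The p-values therefore cover only array-to-array spread, which may be technical.

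Values are log2 expression values per probe set, and a difference of 1 is a doubling. A gene is said to have risen or fallen where limma's adjusted p was under 0.05 over all 14288 probe sets kept. WRKY1 lay between 6.57 and 7.84 in Col-0, between 2.23 and 3.26 in SALK_070989, between 2.23 and 2.31 in SALK_016954 and between 3.93 and 4.45 in SALK_136009. No marker of green tissue from the list used has a named probe set, and of 7 root markers only EXPA7, an expansin of root hairs, has one. EXPA7 stayed between 2.23 and 2.42 outside the combined experiment of SALK_070989, where it read 2.44 to 3.29. The array's control for 25S ribosomal RNA ranged from 7.05 in a SALK_016954 array to 13.10 in a SALK_070989 dark array. In bulk shoot RNA, fewer chloroplast-rich cells and less plastid RNA per cell cannot be told apart.

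Of the 48 probe sets, 45 passed the filter of a highest group mean above 4. The others stayed near the lowest value of the table, 2.23. The probe set of ndhF had group means of 2.23 to 2.34, that of petD 2.25 to 2.63 and that of rpoB, a core subunit of the polymerase, 2.26 to 2.99. The Col-0 dark arrays of rpoB read 2.55, 3.13 and 3.28 and its light arrays 2.30 each, but it was not tested.

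**Figure D1:**
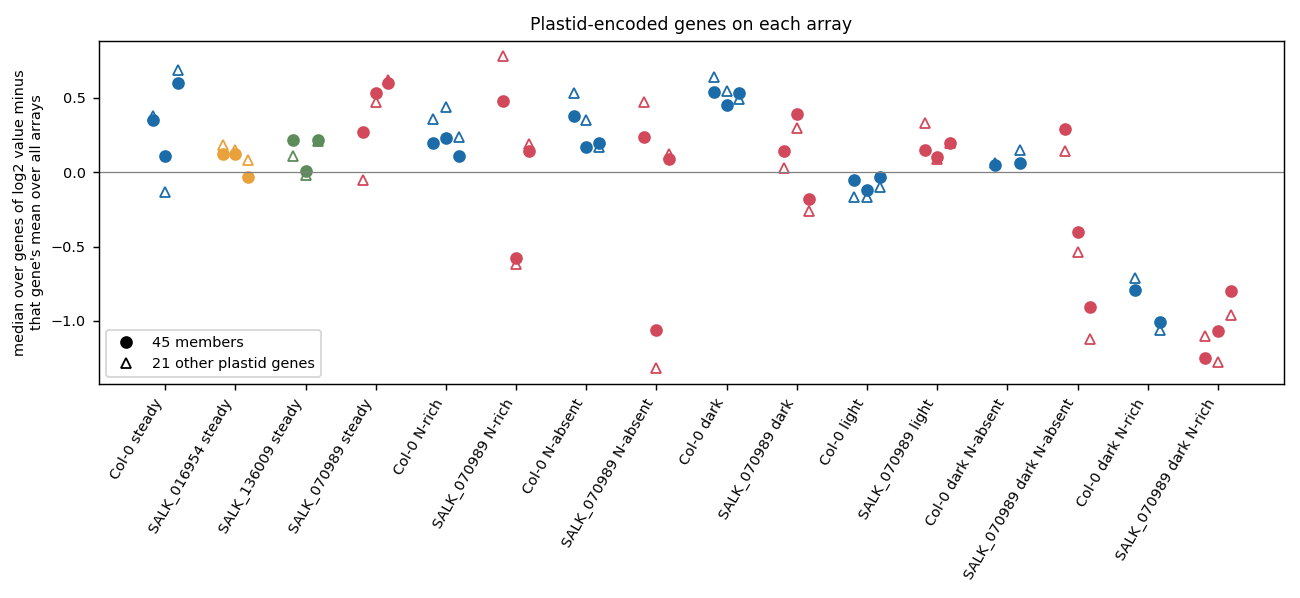
Each symbol is 1 array, placed by its group. The vertical axis is the median, over the 45 members (filled circles) or 21 other plastid genes (open triangles), of the log2 value minus that gene's mean over all arrays. The dark N-rich arrays lie lowest as a group, from -1.25 to -0.79, and the Col-0 dark arrays lie at 0.45 to 0.54.

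Relative to each gene's own mean over all arrays, the members' median stood at 0.45 to 0.54 on the Col-0 dark arrays and at -0.12 to -0.03 on the Col-0 light arrays. It stood at -1.25 to -0.79 on the 5 dark N-rich arrays of both genotypes, where at most 2 of 45 members exceeded their mean. Arrays of 1 group could also stand apart. The arrays numbered 2 of SALK_070989 N-absent and N-rich lay at -1.06 and -0.58 while the others of those groups lay between 0.09 and 0.48. The SALK_070989 dark N-absent arrays spread from 0.29 through -0.40 to -0.91. The 21 other plastid genes measured, for ATP synthase and ribosomal proteins, stood at -1.32 on the lowest of these arrays, SALK_070989 N-absent replicate 2.

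The first comparison asks how a day of darkness changed plastid transcripts. In Col-0, 26 of 45 members rose in the dark and 3 fell. That is 57.8% higher and 6.67% lower, where 38.1% of all probe sets tested were higher and 38.2% lower. In either direction 64.4% of members were called, against 76.3% of all probe sets. The median difference was 0.51 for the members and 0.00 for all probe sets. Dark and light arrays did not overlap for 40 of 45 members, against 80.4% of all probe sets. The 4 highest differences were those of petL, petN, psaA and petG, while rbcL, for the large subunit of the carbon-fixing enzyme RuBisCO, fell.

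All 5 cytochrome b6f genes measured changed, 4 upward and 1 downward, where 76.3% of all probe sets changed. This complex passes electrons between the photosystems. The small subunit gene petL read 6.05, 5.75 and 6.16 on the Col-0 light arrays and 8.52, 9.07 and 8.71 on the dark arrays. Every dark array lay above every light array, a difference of 2.78 ± 0.60 (SE, limma adjusted p = 8.2e-05), or 6.87-fold. For petN, another small subunit, the light arrays read 4.94, 4.69 and 4.56 and the dark arrays 7.02, 7.26 and 7.11. That is a rise of 2.40 ± 0.35 (limma adjusted p = 1.6e-07). The gene next to petL, petG, also for a small subunit, rose by 2.15 ± 0.47 (limma adjusted p = 9.9e-05), and petA, for cytochrome f, rose by 0.83 ± 0.26. In contrast petB, for cytochrome b6, fell from 12.33, 12.46 and 12.34 to 12.09, 11.77 and 11.90, a difference of -0.46 ± 0.19 (limma adjusted p = 0.032).

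Photosystem I, which reduces ferredoxin, showed the same split of 4 upward and 1 downward, again beside 76.3% of all probe sets. Its core gene psaA rose from 6.90, 7.30 and 6.99 to 9.24, 9.45 and 9.46 (2.32 ± 0.54, limma adjusted p = 0.00021). Its neighbour psaB, for the partner of that core, rose by 0.97 ± 0.25. The iron-sulphur subunit gene psaC rose from 5.88, 5.32 and 5.93 to 7.92, 7.33 and 7.62 (1.92 ± 0.37, limma adjusted p = 1.6e-05), and psaI by 1.36 ± 0.41. The small subunit gene psaJ fell instead, from 9.73, 9.64 and 9.87 to 8.94, 8.83 and 8.80. The groups did not overlap, and the difference was -0.89 ± 0.35 (limma adjusted p = 0.022). The ribosomal protein genes that follow psaJ on the genome, rpl33 and rps18, fell with it, by 1.01 and 1.67 on the log2 scale.

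Photosystem II, which splits water, had 9 of 15 members higher and 0 lower, where 38.1% of all probe sets were higher and 38.2% lower. In either direction 9 of 15 were called, against 76.3% of all probe sets. The counts for photosystem II were also 9 and 0 at an unadjusted p under 0.05. The gene of its reaction centre protein D1, psbA, read 9.16, 9.05 and 9.14 in light and 10.69, 10.47 and 10.68 in dark. Its rise of 1.50 ± 0.21 had the smallest adjusted p of the members (limma, 9.4e-08). The D2 gene psbD rose by 1.56 ± 0.44, the inner antenna gene psbB by 1.53 ± 0.46 and psbT by 1.35 ± 0.41. The cluster of psbE, psbF, psbL and psbJ rose by less, from 0.29 for psbF to 0.55 for psbL, and psbI rose by 0.46 ± 0.21. The remaining members were psbK, psbM, psbC, psbZ, psbH and psbN. Their differences ran from -1.14 ± 0.62 for psbN, which encodes an assembly factor, to 0.41 ± 0.40 for psbC, an inner antenna gene, and none passed the test.

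The NDH complex returns electrons from the stroma to the membrane. Of its 9 genes measured, 4 rose (44.4%, all probe sets 38.1%), and 0 fell (all 38.2%) at either an adjusted or an unadjusted p under 0.05. The gene ndhE rose from 7.0, 6.93 and 7.07 to 8.96, 8.85 and 9.47, with no overlap (2.09 ± 0.41, limma adjusted p = 2.6e-05). Next to it, ndhG rose by 1.69 ± 0.25 (limma adjusted p = 2.1e-07). The adjacent pair ndhJ and ndhK rose by 1.55 ± 0.54 and 1.66 ± 0.58, while ndhC beside them differed by -0.10 ± 0.16. The other members, ndhD, ndhI, ndhA and ndhH, differed by -0.05 to 0.50 and did not pass the test.

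Genes outside the photosynthetic complexes were divided. The acetyl-CoA carboxylase subunit gene accD, for fatty acid synthesis, rose from 7.21, 7.27 and 7.16 to 9.06, 9.38 and 9.19 (2.00 ± 0.65, limma adjusted p = 0.0061). The envelope protein gene cemA rose by 1.29 ± 0.32, clpP, for a protease subunit, by 0.51 ± 0.22, and ccsA, for cytochrome c assembly, by 0.47 ± 0.22. In the dark, rbcL fell from 9.47, 9.75 and 9.60 to 8.99, 8.87 and 8.54 (-0.81 ± 0.33, limma adjusted p = 0.029). The intron maturase gene matK differed by -0.54 ± 0.27 (limma adjusted p = 0.072). Of the ycf genes, which serve photosystem I assembly, ycf4 rose by 1.49 ± 0.44, and ycf3 differed by 1.14 ± 0.56 without passing. None of the 3 polymerase genes measured, rpoA, rpoC1 and rpoC2, was called by limma or had an unadjusted p under 0.05. Their differences were 0.30, 0.56 and 0.47, where 76.3% of all probe sets were called.

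**Figure D2:**
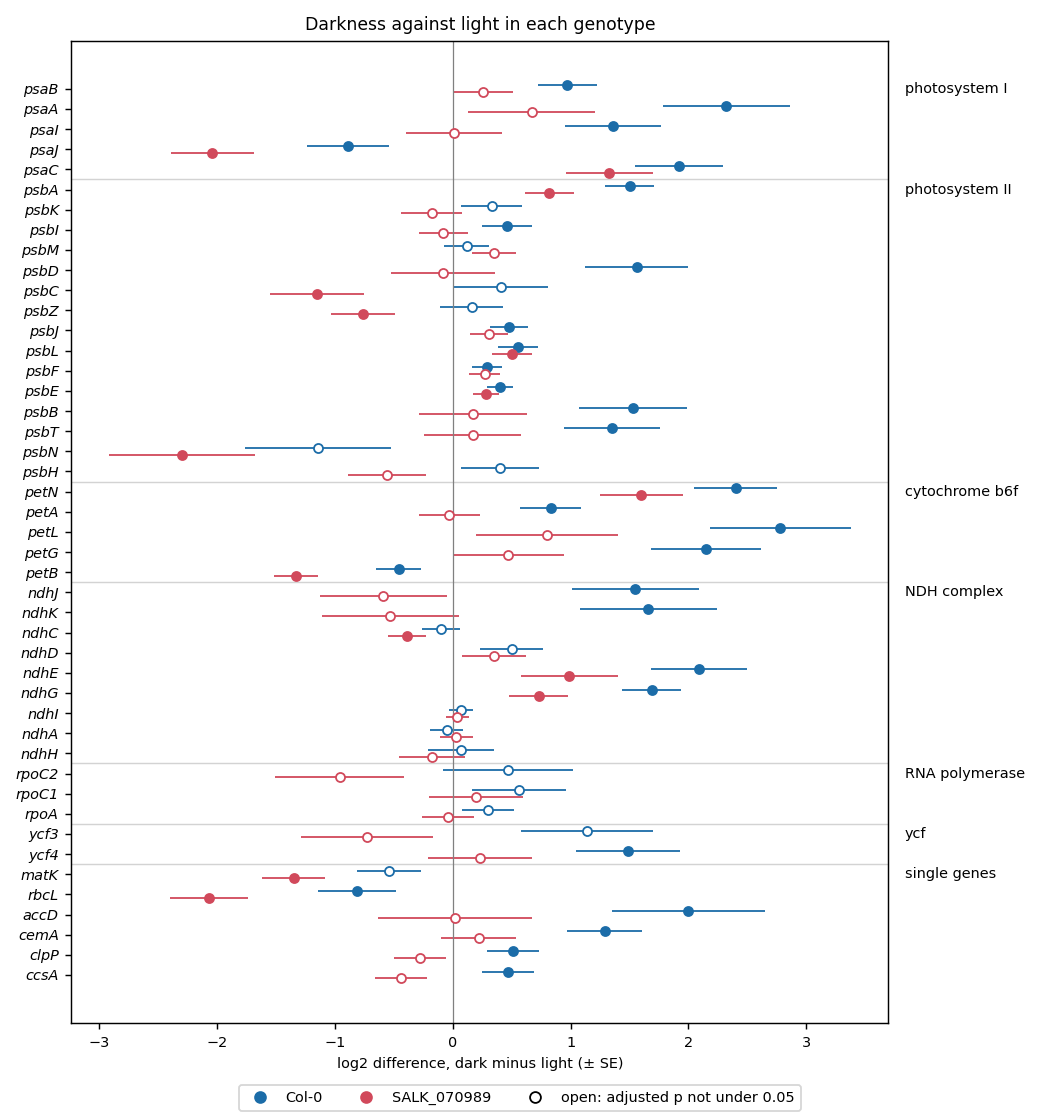
Points are log2 differences, dark minus light, with standard errors, for 45 plastid-encoded genes in Col-0 (blue) and SALK_070989 (red), grouped by role and ordered by genome position within each. Filled points passed the test. Most blue points lie to the right of 0, up to petL at 2.78, and the red points lie to the left of the blue for 43 of 45 genes.

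Neighbours on the genome did not always move alike. In the cluster psbB, psbT, psbH, petB and petD, psbB and psbT rose, psbH differed by 0.40 ± 0.33, petB fell and petD was not measured. In the pair psbD and psbC, psbD rose by 1.56, while psbC differed by 0.41 ± 0.40. In the run accD, psaI, ycf4, cemA and petA all 5 rose, by 0.83 to 2.00. Because neighbours share transcripts, these counts of genes are not counts of independent events. In Col-0 the size of the change also went with the brightness of the probe set. Of 15 members with a mean value of at most 8, 12 rose and the median difference was 1.69. Of 13 members with a mean above 11, 4 rose and 1 fell, with a median of 0.16. Of all probe sets, 38.1% rose and 38.2% fell, and they were not divided by brightness. In SALK_070989 the medians of these 2 classes were 0.23 and -0.04. There 4 of the 15 dimmer members rose and 1 fell, and of the 13 brighter ones 0 rose and 4 fell.

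Several other values moved with darkness in Col-0. The 25S ribosomal RNA control read 12.72 to 12.80 in the dark and 10.45 to 10.83 in light, and the array median was 4.30 against 4.56. Of 18 mitochondrial probe sets, 4 passed the filter, which high values in the dark alone can satisfy. All 4 rose, with a median of 1.89. Of 21 other plastid genes 11 rose (52.4%) and 3 fell (14.3%), where 38.1% of all probe sets rose and 38.2% fell. The part of these values in the result was not tested. The nuclear partners of the same complexes went the other way. All 7 nuclear photosynthesis subunits with a named probe set fell in Col-0, from PETM at -0.31 ± 0.11 to NDHN at -5.56 ± 0.12, and all 7 fell in SALK_070989. Of all probe sets, 38.2% were lower in Col-0 and 36.7% in SALK_070989. CRP1, known from maize for its part in processing and translating pet and psa messengers, fell by 1.52 on the log2 scale in Col-0. RBCS genes, sigma factors and proteins bound to the plastid polymerase have no named probe set here. When each of the 6 arrays was left out in turn, 21 of the 29 calls held every time. The exceptions were ccsA, psbF, psaJ, clpP, petB, rbcL, psbL and psbI. Without Col-0 dark replicate 3 or Col-0 light replicate 3, the 3 lower calls were lost (rbcL -0.68 and -0.81, limma adjusted p = 0.10 and 0.053).

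**Figure D3:**
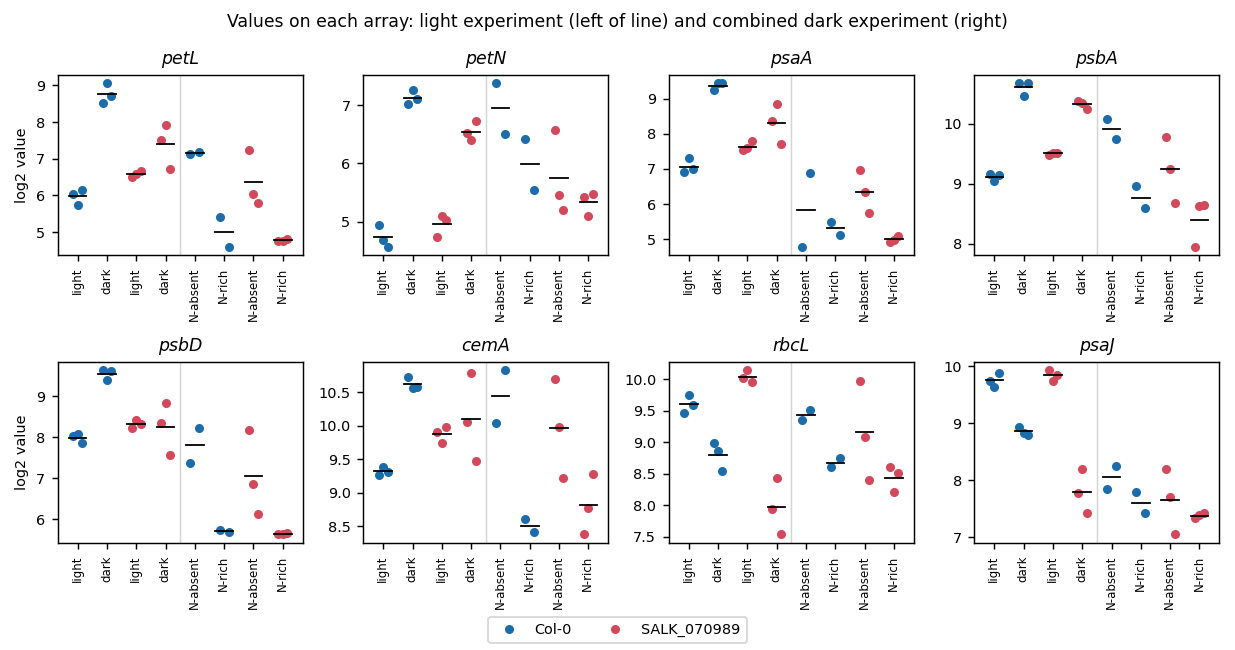
Each point is 1 array, and the black bar is the group mean, for 8 members. The vertical axis is the log2 value. Left of the grey line are light and dark, right of it dark N-absent and dark N-rich, with Col-0 in blue and SALK_070989 in red. In Col-0 the dark arrays of petL, petN, psaA, psbA, psbD and cemA lie above the light arrays, and those of rbcL and psaJ lie below them.

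In SALK_070989, whose light and dark arrays are separate from those of Col-0, darkness split the members. In this line 7 rose and 8 fell, that is 15.6% and 17.8%, where 37.5% of all probe sets rose and 36.7% fell. The median difference was 0.02. Dark and light arrays did not overlap for 20 of 45 members, against 78.3% of all probe sets. The 7 that rose, psbA, petN, psbL, psbE, psaC, ndhE and ndhG, also rose in Col-0 and made up 26.9% of the genes that rose there. The 3 that fell in Col-0, rbcL, psaJ and petB, also fell here and made up 37.5% of the genes that fell in this line. No member was called in opposite directions in the 2 genotypes. Calls common to both genotypes were not counted over all probe sets, of which 76.3% were called in Col-0 and 74.3% in SALK_070989.

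The deepest falls in SALK_070989 were in genes of different roles. In the dark, rbcL fell from 10.02, 10.15 and 9.96 to 7.95, 8.43 and 7.54, without overlap (-2.07 ± 0.33, limma adjusted p = 1e-06). The psbN probe set fell from 7.87, 7.73 and 8.26 to 5.52, 5.92 and 5.52 (-2.30 ± 0.62, limma adjusted p = 0.0011). For psaJ the values went from 9.93, 9.74 and 9.85 to 7.77, 8.20 and 7.43 (-2.04 ± 0.35, limma adjusted p = 3.4e-06). The groups were again separate for all 3. matK fell by 1.35, petB by 1.33, psbC by 1.15, psbZ by 0.76 and ndhC by 0.39 on the log2 scale. Among the genes that rose, petN went from 4.74, 5.10 and 5.02 to 6.53, 6.40 and 6.73 (1.60 ± 0.35, limma adjusted p = 0.00012). psaC rose by 1.33 ± 0.37, ndhE by 0.99 ± 0.41 and psbA by 0.82 ± 0.21.

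Several of the largest Col-0 changes were not called in this line. For petL the light arrays read 6.51, 6.59 and 6.67 and the dark arrays 7.51, 7.92 and 6.73, a difference of 0.80 ± 0.60 (limma adjusted p = 0.23). For accD the dark arrays read 7.93, 8.61 and 7.10 against 7.75, 7.86 and 7.96 in light, a difference of 0.02 ± 0.65. For psbD they read 8.34, 8.84 and 7.57 against 8.22, 8.43 and 8.32. The light arrays of these genes lay close together while the dark arrays spread widely, with replicate 3 the lowest of the dark arrays for each. Of the 15 calls in this line, 9 held without each array in turn (psbA, matK, petN, rbcL, psbL, psaJ, psbN, petB and psaC). The 25S ribosomal RNA control read at most 11.08 in light and 12.93 to 13.10 in dark, and its part was not tested.

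The difference between the dark responses of the 2 genotypes was tested as an interaction. None of 45 members passed (limma, smallest adjusted p = 0.084, for petB), where 2.22% of all probe sets did. At an unadjusted p under 0.05 there were 23 members, all with the lower response in SALK_070989, against 13.9% of all probe sets. The response in SALK_070989 was the lower one for 43 of 45 members, with a median difference of differences of -0.92. It was also the lower one for 21 of 21 other plastid genes (median -0.81) and 4 of 4 mitochondrial probe sets (median -0.58), whose part was not tested. Of 18 mitochondrial probe sets only these 4 passed the filter, which high Col-0 dark values alone can satisfy. Such a passage favours a lower response in SALK_070989. The interaction was -0.87 ± 0.27 for petB, -2.19 ± 0.82 for ndhK, -2.14 ± 0.77 for ndhJ and -1.26 ± 0.47 for rbcL. A fit to only the 4 groups compared called 17 members, all lower, so the count depended on which groups entered the fit. The 2.22% belongs to the main fit, and the share of all probe sets in the smaller fit is not given here. Without SALK_070989 dark replicate 2, 1 member was called.

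The second comparison asks how nitrogen changed plastid transcripts in the dark. With nitrogen, 18 members fell in Col-0 and 16 in SALK_070989, and 0 rose in either (limma, also 0 at an unadjusted p under 0.05). In Col-0, 18 of 45 members (40.0%) fell, where 9.6% of all probe sets were lower and 10.6% higher. The median difference was -1.12 against 0.00 for all probe sets. The arrays did not overlap for 37 of 45 members, against 55.3% of all probe sets. Each Col-0 group had 2 arrays.

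The genes that fell in Col-0 came from every role. The polymerase subunit gene rpoC1, not called in darkness alone, read 8.82 and 8.83 on the dark N-absent arrays and 6.77 and 6.75 on the dark N-rich arrays. The difference was -2.06 ± 0.49 (limma adjusted p = 0.0022). cemA read 10.04 and 10.83 without nitrogen and 8.61 and 8.41 with it (-1.93 ± 0.39, limma adjusted p = 0.00035). petA read 11.22 and 11.39 against 9.71 and 9.78 (-1.56 ± 0.32, limma adjusted p = 0.00041). The arrays of the 2 nitrogen states did not overlap for any of these genes. psbA fell by 1.15 on the log2 scale, from 10.09 and 9.75 to 8.96 and 8.59 (limma adjusted p = 0.0013), and ccsA fell by 1.15 too. petL fell by 2.15, ndhK by 2.12, psbD by 2.09, ndhJ by 1.86, petG and ycf4 by 1.76 each and psbC by 1.62. The other calls were psbH, psaI, psbZ, matK, clpP and petB, which fell by 0.90 to 1.47. By role, 5 of 15 photosystem II genes fell, 4 of 5 cytochrome b6f genes, 2 of 9 NDH genes, 1 of 5 photosystem I genes, 1 of 3 polymerase genes, 1 of 2 ycf genes and 4 of 6 single genes. Of all probe sets, 9.6% were lower. For psaA the arrays overlapped, with 4.77 and 6.89 without nitrogen and 5.50 and 5.12 with it.

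In SALK_070989, 16 of 45 members (35.6%) fell with nitrogen in the dark, where 15.0% of all probe sets were lower and 13.6% higher. The median difference was -0.71. petG read 6.45, 5.05 and 4.12 without nitrogen and 3.59, 3.54 and 3.50 with it (-1.67 ± 0.47, limma adjusted p = 0.0067). psbD read 8.18, 6.87 and 6.12 against 5.63, 5.64 and 5.66 (-1.41 ± 0.44, limma adjusted p = 0.014). psbA read 9.79, 9.24 and 8.68 against 7.94, 8.63 and 8.64 (-0.83 ± 0.21, limma adjusted p = 0.0031). In all 3 genes the N-absent arrays spread, with replicate 1 highest and replicate 3 lowest, and every one lay above every N-rich array. Over the members, arrays of the 2 states did not overlap for 17 of 45, against 42.6% of all probe sets. The others that fell were petL, psbB, psaC, psbC, rpoC1, psbH, ndhE, cemA, ndhH, psbZ, petA, clpP and ndhG, by 0.67 to 1.57 on the log2 scale.

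**Figure D4:**
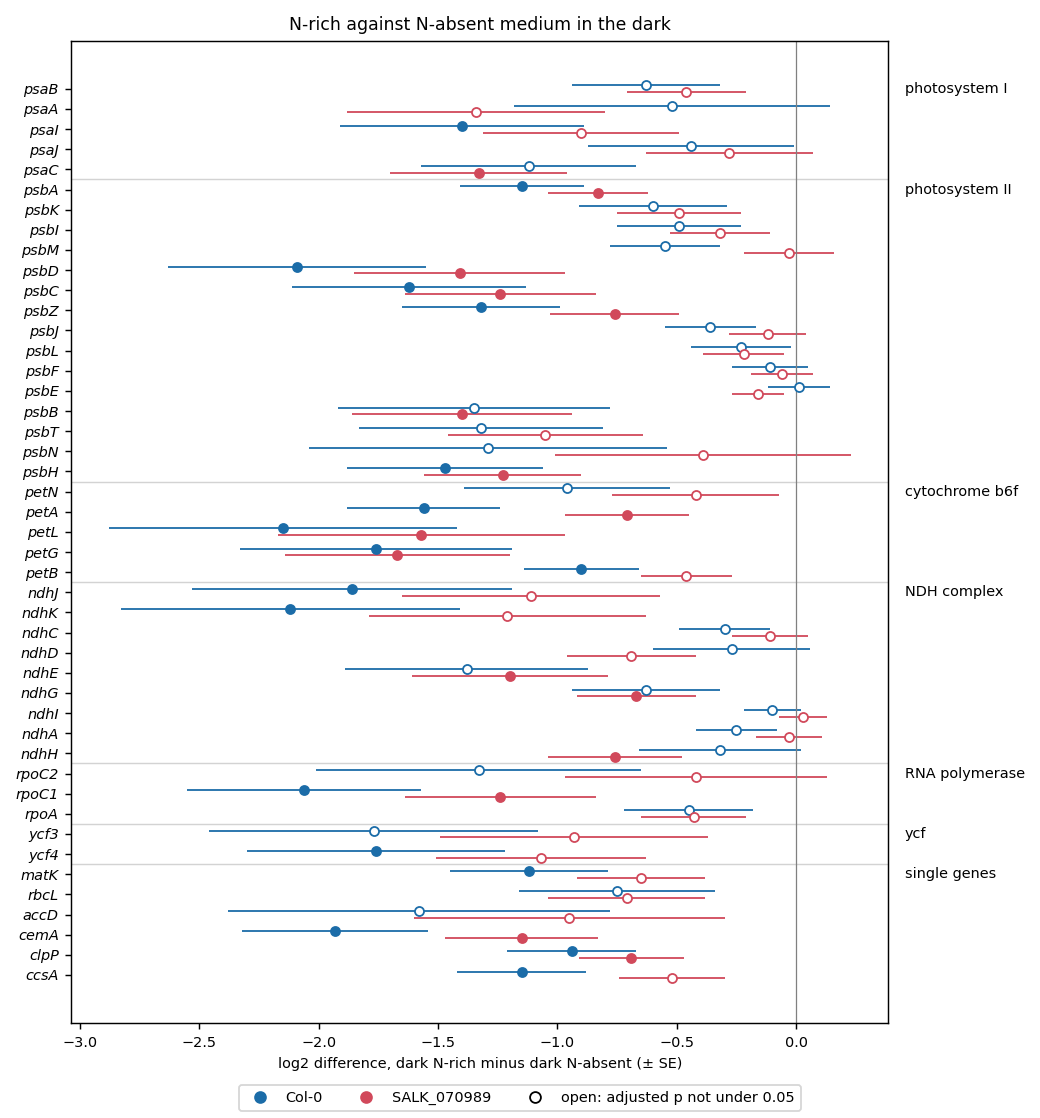
Points are log2 differences, dark N-rich minus dark N-absent, with standard errors, for 45 plastid-encoded genes in Col-0 (blue, 2 arrays against 2) and SALK_070989 (red, 3 against 3). Filled points passed the test. All blue points except psbE and all red points except ndhI lie to the left of 0.

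The genotypes shared 11 of these calls, 61.1% of those in Col-0 and 68.8% of those in SALK_070989. They were psbA, psbD, psbC, psbZ, psbH, petA, petL, petG, rpoC1, cemA and clpP. The share of calls common to both genotypes was not computed over all probe sets. No interaction of nitrogen and genotype in the dark was called for a member (limma), where 9.54% of all probe sets were called. At an unadjusted p under 0.05 there was 1 member (2.22%), against 23.8% of all probe sets. Of 21 other plastid genes, 5 (23.8%) were lower in Col-0 and 2 (9.52%) in SALK_070989, against 9.6% and 15.0% of all probe sets, and 3 of 4 mitochondrial probe sets were lower in Col-0. No nuclear subunit was called lower in Col-0, where 3 of 7 rose, against 10.6% of all probe sets. NDHL rose by 0.83 ± 0.20, PSAN by 0.40 ± 0.14 and PSBY by 0.31 ± 0.11. The arrays overlapped for PSAN and PSBY (limma adjusted p = 0.037 and 0.049) and not for NDHL (limma adjusted p = 0.0022). NDHN fell by 0.41 on the log2 scale in SALK_070989. The 25S ribosomal RNA control read 12.58 to 12.60 without nitrogen and 12.61 to 12.79 with it in Col-0. In SALK_070989 the control was lower with nitrogen, at 12.35 to 12.58 against 12.64 to 12.89 without it, and its part was not tested. On Col-0 dark N-absent replicate 1 the GAPDH 3′ probe set stood 2.91 above the 5′ one, and by 2.11 to 2.22 on the other 3 Col-0 arrays. Its part was not tested.

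These counts changed when single arrays were left out. In Col-0 an omission leaves 1 array in a group, which lowers the precision whatever that array read. In Col-0 the count was 7 without dark N-absent replicate 2 and 10 without dark N-rich replicate 2, and 6 calls held without each array (psbA, rpoC1, psbZ, cemA, petA and ccsA). In SALK_070989 it was 0 without dark N-absent replicate 1, 26 without dark N-absent replicate 3 and 9 without dark N-rich replicate 1 or replicate 2, so none of the 16 calls held in every case.

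In the light, 2 h of nitrogen changed few plastid transcripts. In Col-0 only psbJ fell, from 12.09, 11.94 and 11.90 to 11.34, 11.78 and 11.38 (-0.47 ± 0.16, limma adjusted p = 0.022), where 14.2% of all probe sets were lower and 11.6% higher. That call was lost without Col-0 N-rich replicate 1 or 3 or N-absent replicate 1 (-0.42 to -0.40, limma adjusted p = 0.087 to 0.11), and 2 members were called without N-rich replicate 2. In SALK_070989 only psbA rose, from 9.0, 8.65 and 9.55 to 10.40, 9.70 and 9.98 (0.96 ± 0.21, limma adjusted p = 0.0012), where 9.13% of all probe sets were higher and 9.68% lower. Every N-rich array lay above every N-absent array, and the call held without each array. Without N-rich replicate 2 the count was 2, and without N-absent replicate 1 it was 3. The D1 gene in Col-0 differed by 0.39 ± 0.21 (limma adjusted p = 0.19), from 9.23, 9.32 and 9.78 to 10.01, 9.68 and 9.81, with overlap. The interaction of nitrogen and genotype in the light was called for 0 members (limma), where 0.182% of all probe sets were called. At an unadjusted p under 0.05 there were 2 members (4.44%), against 10.2% of all probe sets.

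**Figure D5:**
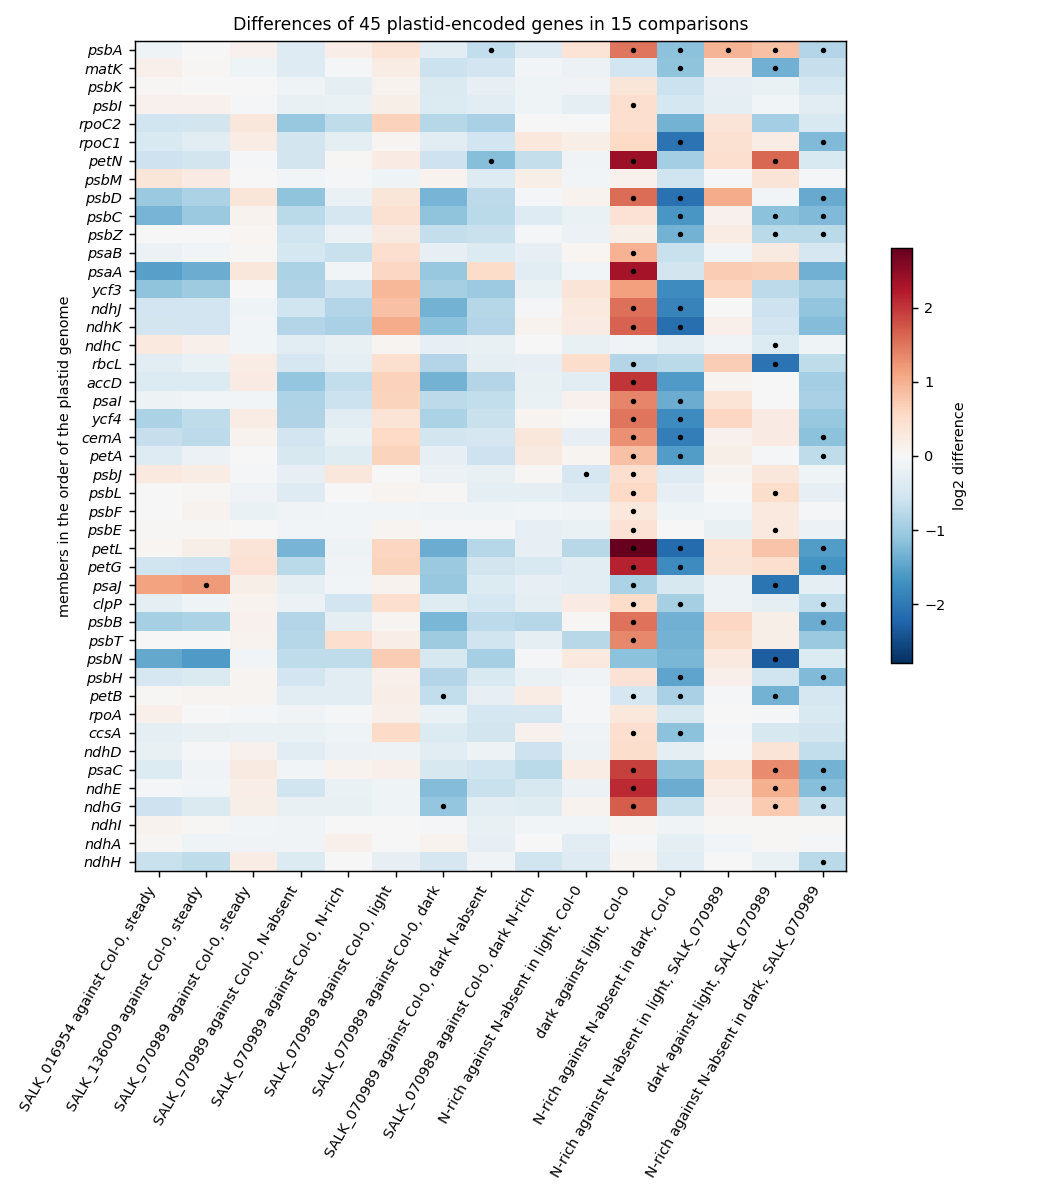
Colour is the log2 difference of each of 45 members (rows, in genome order) in 15 comparisons (columns), red for higher and blue for lower in the first-named group. Black dots mark limma adjusted p under 0.05. Of 85 dots, the columns for darkness hold 29 and 15 and those for nitrogen in the dark 18 and 16.

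The last set of comparisons asks whether loss of WRKY1 changed plastid transcripts in a given condition. Few members passed in any of the 9. In steady growth on full medium, 0 members were called in SALK_016954 (limma), where 3.28% of all probe sets were. At an unadjusted p under 0.05 there were 8 members (17.8%), against 15.5% of all probe sets. Without SALK_016954 replicate 1 there were 3 and without Col-0 replicate 3 there was 1. In SALK_070989 0 were called (limma), where 12.5% of all probe sets were, and 0 had an unadjusted p under 0.05, against 24.9% of all. In SALK_136009, psaJ alone rose, where 5.07% of all probe sets were higher and 3.41% lower. It read 12.34, 12.34 and 11.22 in this line and 11.05, 9.92 and 11.33 in Col-0, so the groups overlapped (1.20 ± 0.35, limma adjusted p = 0.028). The call was lost without Col-0 steady replicate 2 (0.77, limma adjusted p = 0.26) or SALK_136009 replicate 1 or 2 (1.01 each, limma adjusted p = 0.13 and 0.16), and without replicate 3 the count was 2. In SALK_016954 psaJ read 11.01, 12.37 and 12.33, a difference of 1.13 ± 0.35 (limma adjusted p = 0.067). In both lines the arrays with psaJ above 12 were those on which the 25S ribosomal RNA control read 7.05 to 7.75, and its part was not tested. The 3 lines were compared with the same Col-0 arrays.

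In the dark, ndhG and petB were lower in SALK_070989 than in Col-0, where 1.15% of all probe sets were lower and 1.46% higher. The ndhG arrays read 5.54, 5.81 and 5.73 in Col-0 and 4.25, 5.37 and 4.23 in the line (-1.08 ± 0.25, limma adjusted p = 0.012). For petB they read 12.09, 11.77 and 11.90 against 11.45, 11.44 and 10.79 (-0.69 ± 0.19, limma adjusted p = 0.042). Neither overlapped, and over all members 27 of 45 did not, against 20.5% of all probe sets. The median difference of the members was -0.58, and 42 of 45 were below 0, as were 21 of 21 other plastid genes (median -0.52) and 4 of 4 mitochondrial probe sets (median -0.46). The mitochondrial probe sets can pass the filter through high Col-0 dark values alone, which favours this direction. Both calls were lost without SALK_070989 dark replicate 3 (ndhG -0.88 and petB -0.47, limma adjusted p = 0.11 and 0.33), the array with the lowest plastid transcripts of its group, and without Col-0 dark replicate 2 (-1.02 and -0.77, limma adjusted p = 0.052 and 0.056). The ndhG call was also lost without SALK_070989 dark replicate 1, and the petB call without Col-0 dark replicate 1 or 3. These arrays are also those of the dark response, so the results are not independent of it.

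In the dark without nitrogen, petN was lower in SALK_070989 by 1.20 ± 0.39 (limma adjusted p = 0.028) and psbA was lower by 0.68 ± 0.24 (limma adjusted p = 0.040), where 8.96% of all probe sets were lower and 11.1% higher. Both overlapped Col-0, petN with 6.58, 5.46 and 5.20 against 7.39 and 6.5, and both calls were lost without Col-0 dark N-absent replicate 1 or SALK_070989 replicate 2 or 3. The psbA call was also lost without Col-0 replicate 2, and without SALK_070989 replicate 1 the count was 6. Of 7 nuclear photosynthesis subunits, 6 were higher in SALK_070989 there, from PSAE1 at 0.29 ± 0.11 to NDHL at 1.27 ± 0.18. In the dark with nitrogen, 0 members were called (limma), where 5.19% of all probe sets were, and 0 had an unadjusted p under 0.05, against 18.4% of all. In the light control 0 were called, where 5.61% of all were, and 3 (6.67%) had an unadjusted p under 0.05, against 17.1% of all. There 38 of 45 members were above Col-0, with a median of 0.20. The arrays did not overlap for 23 of 45 members, against 29.3% of all probe sets. These light arrays also enter the interaction of darkness and genotype. On N-rich medium 0 were called, where 2.75% of all were, and 2 (4.44%) had an unadjusted p under 0.05, against 17.9% of all. On N-absent medium 0 were called, where 8.02% of all were, and 5 (11.1%) had an unadjusted p under 0.05, against 22.0% of all. All 45 members lay below Col-0 there, with a median of -0.46, as did 21 of 21 other plastid genes, with a median of -0.51. Without the arrays numbered 2 of SALK_070989, an alternative chosen after seeing the data, the median was -0.07 and the count stayed 0. Without SALK_070989 N-absent replicate 1 the count was 2.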

How the data were processed

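The values analysed are the log2 probe set values that the authors deposited, and the submitters' processing notes name GCRMA. That they are log2 values was inferred from their range of 2.23 to 14.63. The GCRMA version is not stated in the labels. GCRMA puts probe sets without signal near 1 value, and 26.4% of values lay within 0.01 of the lowest. Gene names came from the platform annotation. The 64 control probe sets were left out, and 14288 of the 22746 others, with a highest group mean above 4, were tested.

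A model of 16 group means over 46 arrays was fitted with limma 3.58.1 in R 4.3.3 (30 residual and 4.97 prior degrees of freedom, two-sided), with 18 contrasts and Benjamini-Hochberg adjustment per contrast at 0.05. Tables and figures used python 3.11.15, pandas 2.3.3, numpy 2.4.6 and matplotlib 3.10.9. Alternatives were no filter, a filter at 6, further quantile normalization, a fit to the compared groups alone, the replicate number as a block, and omission of each array in turn. The number of arrays limits the precision. The fit was tested on simulated data.

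Called members are named, with full statistics for at most the 10 largest differences in each direction, and up to 4 called genes of each other list, those with the smallest adjusted p. PETM and PSAE1, shown as ends of ranges, and rps14 were chosen after their values were seen. The members and lists were chosen with earlier results of these data known. Same-numbered arrays counted as paired where each of 3 correlations of deviations exceeded 0.1. This held for SALK_070989 against Col-0 on N-absent medium (0.14 to 0.49) and for nitrogen in the light in Col-0 (0.13 to 0.15).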

Additional observations from a re-analysis of the deposited data

How the results depend on the processing

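Of 912 refits of the 85 member calls under an alternative, 715 kept the call, 197 lost it and 0 reversed direction. The counts below are of members alone. They stand without the share of all probe sets called under the same alternative, which can move as well. The counts for darkness, both directions together, ranged from 22 to 38 in Col-0 and from 12 to 19 in SALK_070989 over the alternatives run, the highest with only the groups compared. Fitting only the groups compared called 17 members for the interaction of darkness and genotype, 11 for SALK_070989 against Col-0 in light, 8 for nitrogen in the dark in Col-0 and 3 in SALK_070989, and 0 for SALK_136009, for SALK_070989 in the dark and in dark N-absent, and for nitrogen in the light in either genotype. Without a filter, the count was 10 for nitrogen in the dark in SALK_070989, and 0 for SALK_136009 and for SALK_070989 in dark N-absent. In the dark SALK_070989 had 1 call with a filter at 6 and 1 after quantile normalization. The cause was not tested. Leaving out single arrays gave 0 to 3 calls for SALK_016954, 0 to 2 for SALK_136009, and for SALK_070989 0 to 2 in N-absent, 0 to 2 in dark and 0 to 6 in dark N-absent. It gave 0 to 2 and 1 to 3 for nitrogen in the light in Col-0 and SALK_070989, 7 to 16 and 0 to 26 in the dark, and 0 to 1 for the interaction of darkness and genotype. With the replicate number as a block, SALK_136009 had 2 calls and SALK_070989 in dark N-absent had 1, and the block changed no call count where the numbers pair the arrays (0 and 1). For nitrogen in the dark in Col-0 the block gave 22 calls and the crossed pairing, added after seeing the data, 21. After quantile normalization the median difference of all probe sets lay between -0.02 and 0.06 in every comparison. The signal over background limits petD, ndhF and rpoB.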

Other observations

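A plastid gene outside the membership rule read higher with nitrogen in the light. The ribosomal protein gene rps14, which lies beside psaB on the plastid genome, read 2.96, 2.78 and 2.91 on the Col-0 N-absent arrays and 4.76, 4.41 and 3.45 on the N-rich arrays (1.32 ± 0.26, limma adjusted p = 0.00018). In SALK_070989 it read 2.91, 2.67 and 2.75 against 6.06, 4.76 and 5.30 (2.60 ± 0.26, limma adjusted p = 1.2e-09). The N-rich arrays lay above the N-absent arrays in both genotypes, and the N-absent values lay near the lowest value of the table. In the dark the same probe set read 2.44 to 2.91 with nitrogen and 2.56 to 3.20 without it. On N-rich medium rps14 was higher in SALK_070989 than in Col-0 by 1.17 ± 0.26 (limma adjusted p = 0.01), and the arrays did not overlap. The interaction of nitrogen and genotype in the light was 1.27 ± 0.37 (limma adjusted p = 0.14). The gene was singled out after its values were seen. Its probe set passed the filter only through the N-rich groups in the light, with means of 4.21 in Col-0 and 5.37 in SALK_070989. The filter thus favoured a difference in this direction. The next highest group mean was 3.53, in Col-0 dark.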
